A study of Mus musculus with 4 samples.

Results

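Parp14, Parp9, Dtx3l and Parp12 are interferon-inducible genes of the ADP-ribosylation system, and their transcripts were compared in naive and interferon-pretreated mouse embryonic fibroblasts (MEFs) after 1 h of interferon-beta. The genes were chosen by position: every locus of the deposited table that carries a transcript ID and overlaps the Parp14, Parp9 and Dtx3l region of chromosome 16 or the Parp12 region of chromosome 6 (build mm9). This selected 4 loci of the 17576 in the table, or of the 15883 with a transcript ID. No locus without an ID lay in these regions.

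The MEFs came from C57BL/6 mice carrying an H3.3-HA knock-in, in which a tagged cDNA of the histone variant H3.3 takes the place of H3f3b; all groups share this allele. The series holds 4 polyA RNA samples, 1 for each of naive and pretreated cells, unstimulated (0 h) or stimulated with 100 U/ml interferon-beta for 1 h. Values were analysed for the 2 libraries at 1 h, while those at 0 h were not analysed here and the induction within each state is not part of the comparison. The labels do not give the length of the pretreatment or the interval after it. They also name the assay differently, as RNA-Seq in the series title and scTSS-seq in the sample descriptions. With 1 library per group no difference has a replicate check.

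ADP-ribosylation is a modification in which ADP-ribose from NAD is attached to proteins or nucleic acids by enzymes of the PARP family. PARP14 combines macrodomains, which bind ADP-ribose, with a catalytic domain that adds single ADP-ribose units. PARP9 also carries macrodomains and forms a complex with DTX3L, a Deltex-family ubiquitin ligase, so that the complex links ADP-ribosylation to ubiquitin transfer. PARP12 is a zinc-finger member of the family that likewise adds single units. Type I interferon induces many of its target genes through interferon-stimulated response elements in their promoters.

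The table pairs its loci with UCSC transcript IDs and not with symbols, and 0 of its 38980 transcript IDs were found in the name tables used here. The names therefore rest on position. XLOC_010114 (uc007zbs.2, uc007zbt.2, uc007zbu.2 and uc012afb.1), on chromosome 16 from 35832492 to 35871468, was taken as the Parp14 locus. Its span of 38977 bp compares with 39627 bp for Parp14 in RefSeq (GRCm38.p6). XLOC_022054 (uc009blg.2), on chromosome 6 from 39036410 to 39068348, was taken as the Parp12 locus. Its span of 31939 bp compares with 31938 bp for Parp12 in RefSeq. The remaining pair of loci share 1 span of 56716 bp on chromosome 16, from 35926601 to 35983316. This is longer than Parp9 (34152 bp) or Dtx3l (12513 bp) in RefSeq, so length does not name these loci.

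The shared span was resolved by strand. Serial numbers of loci with an ID run through the positions of a chromosome and then start again. Among long loci whose span equals that of a transcript in the GENCODE M21 annotation, 536 of 583 in the first run (91.9%) were on the plus strand and 543 of 571 in the second run (95.1%) were on the minus strand. XLOC_009754 (uc007zbx.1, uc007zby.1 and uc012afc.1) falls in the first run and was taken as Parp9, the plus-strand gene. XLOC_010115 (uc007zbv.1 and uc007zbw.1) falls in the second run and was taken as Dtx3l. A non-coding gene of the minus strand, Gm15564 (16579 bp), overlaps Parp9 in the same region, and the shared span may include it. XLOC_010116, the serial number after XLOC_010115, has 0 rows in the table. The name Dtx3l is thus an inference from order and strand. In RefSeq, Parp9 overlaps Dtx3l by 558 bp at their starts and Gm15564 by 5871 bp. No source used here states that reads were assigned by strand, so reads from these overlaps cannot be told apart.

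Promoter windows from 250 bases before to 50 bases after the start were present in the RefSeq table (GRCm38.p6) for 2 of the 4 genes, and they are shown because the elements through which interferon acts often lie in such windows. Dtx3l is on the minus strand at chr16:35938978-35939277 and Parp12 on the minus strand at chr6:39118300-39118599. Capitals mark GAAA on either strand, the repeated unit of the interferon-stimulated response element.
Dtx3l: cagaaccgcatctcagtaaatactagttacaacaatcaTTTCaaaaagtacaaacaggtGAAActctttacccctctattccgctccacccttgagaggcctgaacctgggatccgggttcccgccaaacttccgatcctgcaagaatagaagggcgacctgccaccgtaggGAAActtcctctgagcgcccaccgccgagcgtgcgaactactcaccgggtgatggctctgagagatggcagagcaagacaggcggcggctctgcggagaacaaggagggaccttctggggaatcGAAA
Parp12: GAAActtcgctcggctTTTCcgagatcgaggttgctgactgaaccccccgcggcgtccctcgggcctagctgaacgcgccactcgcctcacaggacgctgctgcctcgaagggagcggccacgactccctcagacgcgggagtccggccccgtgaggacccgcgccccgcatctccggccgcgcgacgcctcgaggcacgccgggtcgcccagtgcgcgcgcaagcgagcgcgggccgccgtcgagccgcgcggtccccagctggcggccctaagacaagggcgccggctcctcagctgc

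The Dtx3l window holds 4 such units and the Parp12 window 2, and 89.2% of the 32851 promoter windows of the table hold at least 1. The core of the full element, searched as GAAA repeated on the same strand after any 2 bases, was found on either strand 0 times in both windows, and 3.44% of all windows hold it. The gamma-activated sequence TTCNNNGAA, which reads alike on both strands, was also found 0 times in both, against 8.3% of all windows. The Parp12 window is rich in G and C (73.7%), the Dtx3l window less so (54.3%), and the median of all windows is 52.7%. The absence of these letters speaks only of these windows.

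All 4 genes had higher values in the pretreated library. Levels are given as FPKM, that is, fragments scaled to the length of the transcript and the size of the library. Levels of different genes are compared as deposited, on this per-length scale; that comparison assumes reads along the whole transcript, which the conflicting assay labels leave unsettled, and the scaling between libraries is not given. Parp9 stood at 27.9 FPKM in the naive and 51.6 FPKM in the pretreated library, a 1.85-fold ratio. Dtx3l, whose product pairs with PARP9, stood at 18.3 FPKM in the naive and 23.6 FPKM in the pretreated library, a 1.29-fold ratio. This was the smallest ratio of the 4.

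Parp14 stood at 9.5 FPKM in the naive and 20.7 FPKM in the pretreated library, a 2.17-fold ratio. Parp14 had the largest ratio of the 4. Parp12, the member outside the chromosome 16 cluster and the lowest in both libraries, stood at 4.26 FPKM in the naive and 6.7 FPKM in the pretreated library, a 1.57-fold ratio. Together the genes summed to 59.9 FPKM in the naive and 103 FPKM in the pretreated library, 1.71 times as much.

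**Figure D1:**
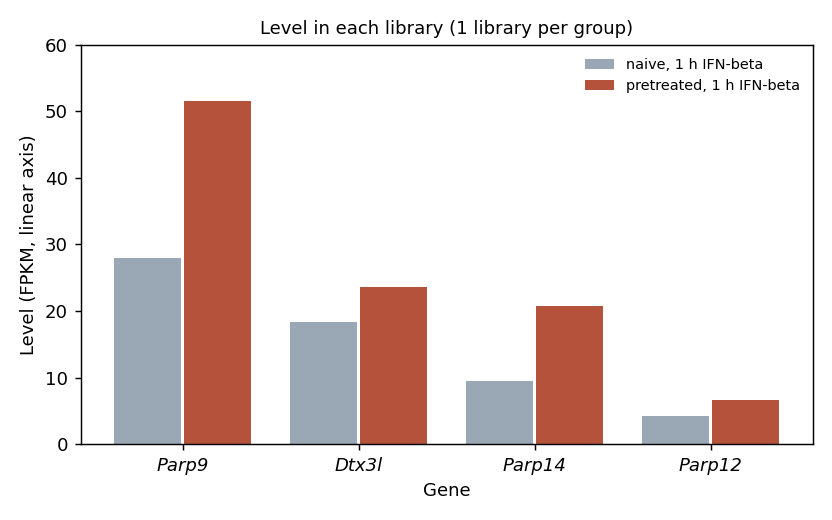
Level of each gene in FPKM on a linear axis; each bar is 1 library, naive or pretreated, both after 1 h of interferon-beta. The pretreated bar is the higher one for all 4 genes, with Parp9 the highest (51.6 FPKM) and Parp12 the lowest (6.7 FPKM).

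The order of the levels was Parp9, Dtx3l, Parp14 and Parp12 in both libraries, but the distances within it differed. Dtx3l was 1.92 times the level of Parp14 in naive cells and 1.14 times in pretreated cells. Parp9 was 1.53 times the level of Dtx3l in naive cells and 2.19 times in pretreated cells. Of the summed level of the genes, Parp9 held 46.6% in naive and 50.3% in pretreated cells, Dtx3l 30.5% and 23%, Parp14 15.9% and 20.1%, and Parp12 7.11% and 6.53%. These ratios have no replicate error, so neighbours in the order cannot be separated by it.

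To set these differences against the transcriptome, the change was expressed as pretreated minus naive log2(FPKM + 1), a scale that understates the change of low loci. It was computed for the 9227 loci with a transcript ID and a mean of at least 1 FPKM. All 4 members passed this filter. Their median change was 0.71, against -0.13 for all loci compared, whose quartiles were -0.46 and 0.18. A change above 0 was found in 4 of 4 members and in 38.4% of all loci. With 4 members, the number is too small to set against that share. All members have spans between 10000 and 100000 bp, and the median change in that class was -0.17.

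The members took ranks in the upper part of this distribution. The change was 1.04 for Parp14, rank 207 of 9227, and 0.86 for Parp9, rank 322. For Parp12 the change was 0.55, rank 714, and for Dtx3l 0.35, rank 1349. Dtx3l thus lay within the highest 14.6% of loci and Parp14 within the highest 2.24%. By level, Parp9 moved from rank 1866 in the naive to rank 1108 in the pretreated library, Parp14 from 3710 to 2121, Dtx3l from 2461 to 1960 and Parp12 from 5653 to 4233.

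**Figure D2:**
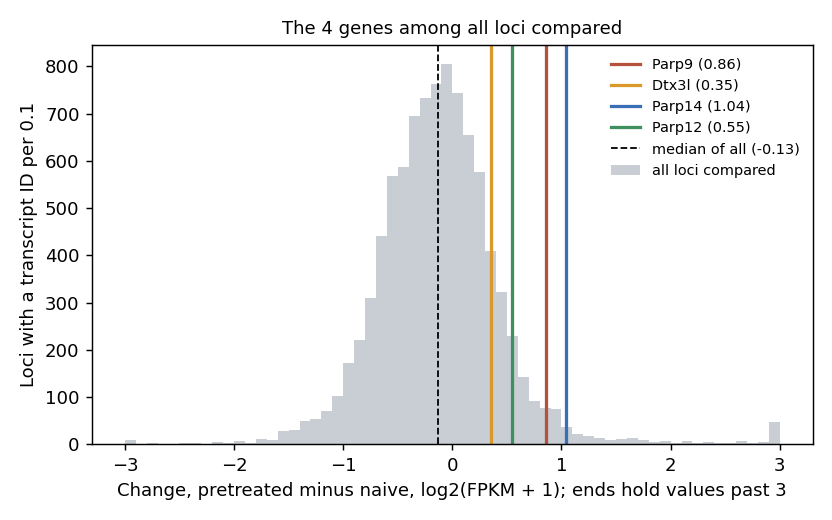
Histogram of the change in log2(FPKM + 1), pretreated minus naive, over 9227 loci with a transcript ID, with the 4 genes as coloured lines and the median of all loci (-0.13) as a dashed line. The genes lie between 0.35 (Dtx3l) and 1.04 (Parp14), above the median.

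A difference of at least 2-fold on this scale was found for 1 of the 4 genes, Parp14, on the higher side and for 0 on the lower side. Of all loci compared, 2.41% reached 2-fold on the higher side and 4.24% on the lower side. Again, 4 genes are too few to set against these shares. Among loci of 10000 to under 100000 bp, 1.76% were at least 2-fold higher. Relative to the median of all loci, the changes were 1.18 for Parp14, 1.0 for Parp9 (just short of the 2-fold limit before rounding), 0.68 for Parp12 and 0.49 for Dtx3l.

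The authors' deposited table carries a test of the reads of these 2 libraries, which compares the libraries and not the conditions. In the authors' deposited table, Parp9 (q-value 0.000118) and Parp14 (q-value 0.000511) passed a q-value of 0.05 on the higher side. Parp12 (p-value 0.0218, q-value 0.102) and Dtx3l (p-value 0.329, q-value 0.553) did not pass in the authors' deposited table. Of the 11721 tested loci with a transcript ID, the authors' deposited table called 3.92% higher and 10.8% lower. These shares give the scale only, as 2 calls are too few to set against them.

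The precision of each ratio was read from the same test. The deposited p-values are the two-sided normal tail of the deposited statistic, so the quotient of log2 ratio and statistic was taken as the standard error that the authors' model gave the ratio. This standard error was 0.19 for Parp9, 0.26 for Parp14, 0.28 for Parp12 and 0.38 for Dtx3l on the log2 scale. Over all loci with naive levels from that of Parp12 to that of Parp9 its median was 0.32, with quartiles of 0.25 and 0.37.

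The implied 95% interval of the ratio ran from 1.43-fold to 2.39-fold for Parp9 and from 1.53-fold to 3.09-fold for Parp14. It ran from 1.07-fold to 2.31-fold for Parp12. For Dtx3l it ran from 0.77-fold to 2.16-fold and so includes both no difference and the ratio of Parp9. The intervals overlapped in 6 of 6 pairs of genes, and an order of the 4 responses was not resolved. These intervals cover what the authors' model counted as error within the 2 libraries and not variation between cultures.

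**Figure D3:**
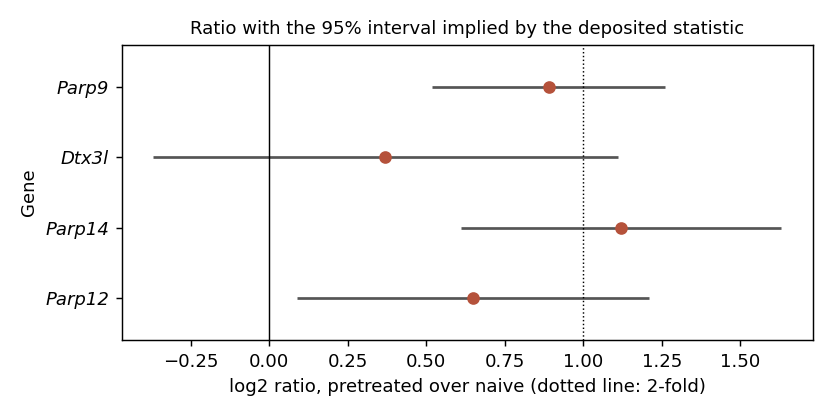
Deposited log2 ratio of pretreated over naive for each gene (points), with the 95% interval implied by the deposited test statistic (lines); the solid vertical line is no difference and the dotted one 2-fold. The interval of Dtx3l (-0.37 to 1.11) includes 0, and those of Parp9, Parp14 and Parp12 lie above it.

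The nearest loci around the genes were then examined, 5 with a transcript ID on each side of each region. Around the chromosome 16 genes, 7 of the 10 flanking loci passed the filter on low values. Of these 7, 0 had a change above 0, a number too small to set against the 38.4% of all loci compared. Their changes ran from -0.82 to -0.02, with a median of -0.41, against -0.13 for all loci compared. Parp14, Parp9 and Dtx3l between them all lay above 0. The locus next to the shared Parp9 and Dtx3l span, XLOC_009755 from 35983412 to 36037481, stood at 9.56 FPKM in the naive and 4.99 FPKM in the pretreated library. The authors' deposited table called it lower (q-value 0.000276), as it did 10.8% of all tested loci with a transcript ID. The nearest locus on the Parp14 side, XLOC_009753, stood at 2.24 FPKM in the naive and 2.09 FPKM in the pretreated library.

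Around Parp12, 3 of the 10 flanking loci passed the filter, and their changes were -1.47, 0.02 and 0.04. The locus that directly follows Parp12, XLOC_022055, had a failure status in the authors' deposited table and was left out. The lowest of these, XLOC_021249, stood at 22 FPKM in the naive and 7.31 FPKM in the pretreated library, and the authors' deposited table called it lower (q-value 6.95e-09). On the log2(FPKM + 1) scale, at least 2-fold higher values were found at 0 of the 10 flanking loci compared in both regions. This number is too small to set against the 2.41% of all loci. Loci under the filter on low values went both ways around Parp12. XLOC_021254 stood at 0.198 FPKM in the naive and 0.705 FPKM in the pretreated library (q-value 0.0905 in the authors' deposited table). XLOC_022058 stood at 0.682 FPKM in the naive and 0.329 FPKM in the pretreated library (q-value 0.181).

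**Figure D4:**
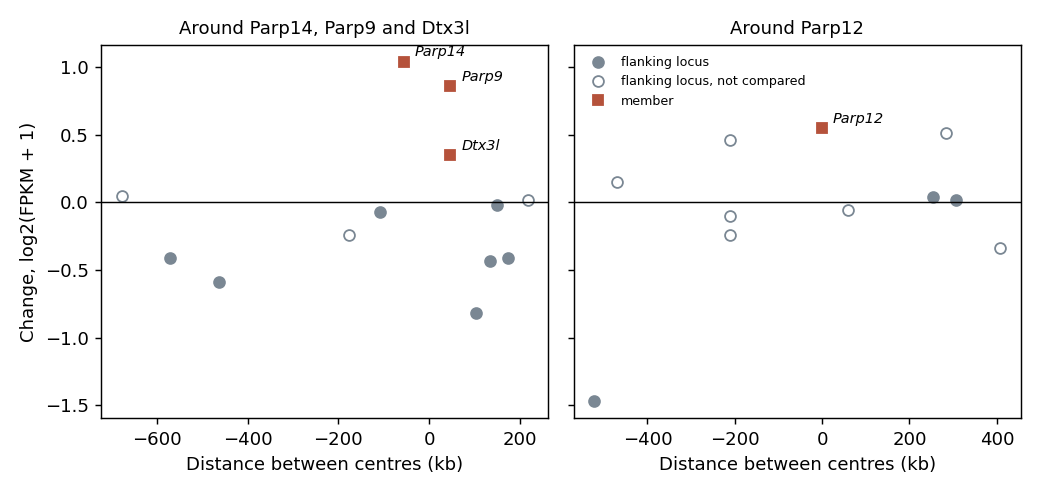
Change in log2(FPKM + 1) of the 4 genes (squares) and of the 5 nearest loci with a transcript ID on each side (circles; open circles were not compared, for a mean under 1 FPKM or a failure status), against the distance between the centre of the locus and that of the region in kb. On chromosome 16 (left) the 3 genes lie above 0 and the filled circles below it. On chromosome 6 (right) Parp12 (0.55) lies above the filled circles, and the open circles run from -0.34 to 0.51.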

How the data were processed

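The authors deposited 1 table of FPKM values for 2 libraries, together with the log2 ratio, the score of a test, p-values, q-values and a status per locus. The submitters' processing notes name TopHat, Cufflinks 1.2.1 and build mm9; annotation, strand setting and scaling between libraries are not given in the sources used here. Deposited starts were raised by 1, since spans then equalled a GENCODE M21 transcript span at 17.6% of 14039 loci, against 8.08% unraised. Spans of at least 20000 bp not shared with another locus entered the strand check.

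Read counts are not in the table. The FPKM value of 1 read was inferred from loci listed at 0 in one library whose deposited p-value would be that of 1 to 4 reads. At 14 spans, this value in the pretreated library was 2.03 times that in the naive library (2.01 to 2.04). Taken as depth alone, this would put the pretreated library at 0.492 of the naive depth, with less precision at low values. The inferred reads were not checked against counts, and depth cannot be told apart from scaling between libraries.

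Changes were computed with pandas 2.3.3 and numpy 2.4.6 (pseudocount 1, mean FPKM at least 1, status FAIL or HIDATA left out). The counting was also run on simulated fold changes without noise, which checks the code and not the reported changes. No test across samples was run. Named were all selected loci and the 5 nearest loci with an ID on each side. Lists of other PARP, ADP-ribose eraser and Deltex genes and of cell type markers could not be applied without symbols, so the labelled cell type was not checked. With 2 libraries, no genes of like pattern were sought. The members and lists were chosen with earlier results of these data known. Alternatives were another pseudocount, filter, fold, q-value limit, centring and set of loci.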

Additional observations from a re-analysis of the deposited data

How the results depend on the processing

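All 8 alternative values of the members' changes (pseudocount 0.1 and centring on the median) kept their direction and moved by less than the implied standard error. Neither alternative could reverse a direction here, because a pseudocount keeps the sign and centring raised every member by the same amount. That amount is smaller than each implied standard error, so these values are no check on the members' changes. The count of members at least 2-fold higher was 1 under each alternative except the 4-fold limit, where it was 0; the 2 calls of the authors' deposited table remained 2 at a q-value under 0.01. The background moved more. With a pseudocount of 0.1, 363 loci were higher and 728 lower, against 222 and 391. A 4-fold limit gave 80 higher and 26 lower loci. Centring gave 320 higher and 259 lower loci, and including loci without an ID gave 289 and 728. A q-value under 0.01 left 873 of 1725 calls in either direction. Restriction to spans of 10000 to under 100000 bp, chosen after seeing the data, left 103 higher loci. The cause was not tested beyond the stricter limits and smaller or larger sets themselves. No paired analysis was possible because naive and pretreated cells had a single library each, and no replicate could be left out. Depth was inferred only as a ratio, so no counting interval could be given for a level.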
